A study of Mus musculus with 6 samples.

Results

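Ferritin stores iron inside cells, and a small set of genes sets how much iron enters, leaves or is stored. The 10 genes described here are FTL and FTH1, which encode the light and heavy ferritin chains, NCOA4, the uptake genes TFRC, SLC11A2 and SLC39A14, the exporter gene SLC40A1, the heme oxygenase gene HMOX1, and the iron sensor genes ACO1 and IREB2. They were chosen by symbol for their role in storage, uptake, export and iron sensing, with earlier results of these data known. They are 10 of the 20323 gene rows in the deposited table, each symbol with a single row.

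The 6 RNA-seq libraries came from RFB, which the labels give as a fibroblast cell line of kidney. In 3 libraries (TGF-β+CXCL10) the cells had received TGF-β, a cytokine that drives fibroblasts toward a fibrotic state, together with CXCL10, a chemokine that acts through the receptor CXCR3, added at a volume of 5 µl according to the titles. In the other 3 libraries (TGF-β), which are titled NC with a replicate number, they had received TGF-β without CXCL10 according to the labels. By the labels, then, every library carries TGF-β and none is untreated. The sources used here give neither concentrations nor times. The labels name mouse as the organism, whereas all 20323 rows carry human Ensembl identifiers and names, so every level below belongs to a human gene model. The description of the series speaks of a SUV39H1 knockdown, which no sample label names, and the groups follow the labels.

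Library totals ran from 12838106 to 15587409 counts. The fibroblast markers had counts for 15 of 15 genes, with a summed level of 112500 to 117500 CPM (counts relative to the library total, TMM-scaled) in TGF-β+CXCL10 and 111000 to 116500 CPM in TGF-β. Of 12 kidney epithelium markers, CDH16, SLC34A1, LRP2, UMOD and AQP2 had 0 counts, while the keratin genes KRT8, KRT18 and KRT19 averaged 2030, 1190 and 210 CPM, giving sums of 3381 to 3667 CPM in TGF-β+CXCL10 and 3122 to 3646 CPM in TGF-β. The macrophage and leukocyte list summed to 42.4 to 48.5 CPM in TGF-β+CXCL10 and 42.5 to 48.0 CPM in TGF-β, most of it CD68, with PTPRC at 0.296 CPM and C1QA, C1QB and CD3E at 0. Endothelial markers summed to 48.6 to 52.4 CPM in TGF-β+CXCL10 and 51.8 to 54.2 CPM in TGF-β, most of it TEK. Erythroid markers, which matter here because red cell precursors handle much iron, summed to 15.9 to 26.8 CPM in TGF-β+CXCL10 and 13.6 to 20.6 CPM in TGF-β, most of it EPOR, with ALAS2 at 0. TGF-β replicate 1 stood apart from its group: over all tested genes its distance to the TGF-β+CXCL10 libraries was 39.7 to 45.8, against 48.7 and 49.5 to the other TGF-β libraries (root of summed squared log2 CPM differences). TGF-β+CXCL10 replicate 1 also lay apart from its group, at 44.8 and 45.1 from the other TGF-β+CXCL10 libraries, which were 40.4 from each other.

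As background, cells take up transferrin-bound iron through the transferrin receptor, reduce it and move it out of the endosome through transporters such as DMT1, and place what they do not use in ferritin. The iron regulatory proteins, encoded by ACO1 and IREB2, bind a short hairpin, the iron-responsive element, when iron is low. Bound in the 5′ UTR of ferritin and ferroportin mRNAs the proteins block translation, and bound in the 3′ UTR of the transferrin receptor mRNA they protect it from decay. Much of ferritin control therefore acts on protein made per mRNA, which an RNA measurement does not see, whereas transcription of the ferritin chains and of HMOX1 answers to oxidative stress and heme through NRF2 and BACH1.

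The hairpins are shown to give the letters of the element and the side of the coding region on which each match lay. They come from the mouse genes of the same name (Ftl1 for FTL), in GENCODE M21 transcripts on GRCm38, since the labels name mouse; the human sequences behind the rows were not used here. The search asked for C, any 5 bases, the loop CAGTGN and 5 bases that pair with the 5 before the loop, on the transcript strand, with G-T pairs allowed. The loop, bases 7 to 12, is in capitals, and the DNA letters are written 5′ to 3′.
Ftl1, 5′ UTR, exon 1, chr7:45459785-45459801, minus strand: cttcaaCAGTGTttgaa
Fth1, 5′ UTR, exon 1, chr19:9982738-9982754, plus strand: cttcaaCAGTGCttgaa
Slc40a1, 5′ UTR, exon 1, chr1:45925471-45925487, minus strand: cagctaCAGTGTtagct
Tfrc, 3′ UTR, exon 19, chr16:32631225-32631241, plus strand: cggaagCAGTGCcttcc
Tfrc, 3′ UTR, exon 19, chr16:32631604-32631620, plus strand: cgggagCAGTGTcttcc
Tfrc, 3′ UTR, exon 19, chr16:32631669-32631685, plus strand: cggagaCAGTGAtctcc
Tfrc, 3′ UTR, exon 19, chr16:32631716-32631732, plus strand: cgggaaCAGTGTttccc
The stems of both ferritin chains have the same letters. Of the 10 genes 4 held a match. Among 21901 mouse protein-coding genes, 0.142% held one in a 5′ UTR and 0.589% in a 3′ UTR. A match is a match of letters, and its absence from the other 6 genes says nothing about their control.

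The principal fit, which does not pair libraries, called 0 of the 9 members tested. In an alternative fit that pairs libraries by the replicate number in their titles, ferritin mRNA was lower with CXCL10, by about the same proportion for both chains. There HMOX1 mRNA fell by a larger proportion, while ACO1 rose slightly. No label states such a pairing, and the rises and falls below are those of the paired fit. In the paired fit (edgeR quasi-likelihood test, adjusted p under 0.05 over all 11970 genes tested) 4 of 9 members were called, 3 lower and 1 higher. Of all genes tested, 17.7% were called in that fit, 8.03% lower and 9.71% higher. The split over all genes was 1162 higher and 961 lower with TMM scaling, and 878 higher and 1358 lower with scaling by totals alone, where the members stayed at 1 higher and 3 lower. In the unpaired fit 0.00% of genes were called. At an unadjusted p under 0.05, that fit had 2449 genes, or 20.5%, and 4 of the 9 members. DESeq2 without pairing called 314 genes, or 2.62%, and 0 members, and with pairing it called 9.53% of genes and FTL, FTH1 and HMOX1. In bulk RNA, fewer cells of a type and less RNA per cell cannot be told apart.

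**Figure D1:**
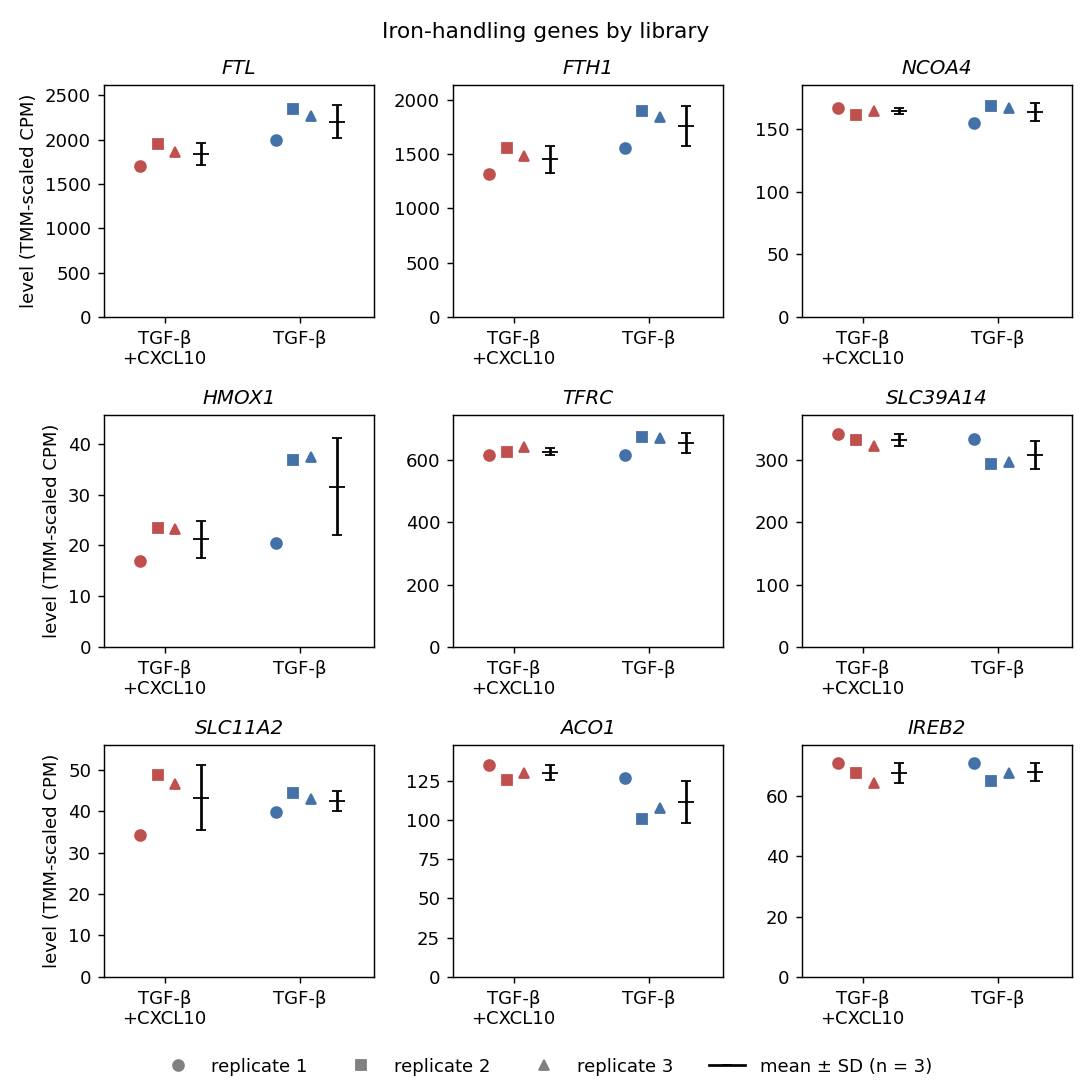
Level of each tested gene in each library (TMM-scaled CPM, linear axis from 0), with TGF-β+CXCL10 in red, TGF-β in blue, a marker shape per replicate number, and mean ± SD beside the points (n = 3). For FTL, FTH1, HMOX1, TFRC and SLC11A2 the replicate 1 library was the lowest of each group, and for ACO1, SLC39A14 and IREB2 it was the highest. This held for members that were called and for members that were not.

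FTL (ENSG00000087086) encodes the light chain, which helps nucleate the iron core. It had 1703, 1950 and 1860 CPM in TGF-β+CXCL10 replicates 1 to 3, against 1994, 2345 and 2271 CPM in TGF-β replicates 1 to 3. Each TGF-β+CXCL10 library was below every TGF-β library, though TGF-β replicate 1 was nearer to the TGF-β+CXCL10 libraries than to its own group. Group means were 1838 ± 125 CPM in TGF-β+CXCL10 and 2203 ± 185 CPM in TGF-β (SD, n = 3 each). FTL fell by 16.5% in the paired fit (log2 change -0.26, SE 0.04, adjusted p = 0.000571), and the unpaired fit gave the same change with an adjusted p of 0.161. FTL was the 1 member of 9 whose groups did not overlap in CPM, where 22.3% of all tested genes did not overlap, 11.2% lower and 11.1% higher.

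FTH1 (ENSG00000167996) encodes the heavy chain, which carries the ferroxidase activity that lets iron enter the shell. It had 1317, 1555 and 1478 CPM in TGF-β+CXCL10 replicates 1 to 3, against 1552, 1897 and 1837 CPM in TGF-β replicates 1 to 3. The groups overlapped by a small margin, since TGF-β replicate 1 lay just under TGF-β+CXCL10 replicate 2. The means were 1450 ± 121 CPM in TGF-β+CXCL10 and 1762 ± 184 CPM in TGF-β. FTH1 fell by 17.6% in the paired fit (log2 change -0.28, SE 0.04, adjusted p = 0.000417), with an unpaired adjusted p of 0.161. Both ferritin chains have many processed copies in mammalian genomes, and the sources used here do not say how the authors counted reads shared with such copies.

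Ferritin mRNA was abundant in these cells. By the deposited FPKM, which is per transcript length, FTL averaged 2079 ± 145 in TGF-β+CXCL10 and 2571 ± 259 in TGF-β, and FTH1 1550 ± 123 in TGF-β+CXCL10 and 1977 ± 237 in TGF-β. Among all rows ranked by FPKM, FTL stood between rank 17 and 21 in the TGF-β+CXCL10 libraries and between 13 and 17 in the TGF-β libraries. The chains together took 0.297%, 0.346% and 0.329% of all counts in TGF-β+CXCL10 replicates 1 to 3, against 0.353%, 0.437% and 0.419% in TGF-β replicates 1 to 3. On the FPKM scale the groups did not overlap for either chain, whereas in CPM those of FTH1 did. In FPKM, 12.8% of tested genes were lower without overlap and 7.67% higher, beside 11.2% and 11.1% in CPM, so FPKM leaned toward lower values over all genes.

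The light and heavy chains kept nearly the same proportion. The log2 ratio of FTL to FTH1, taken within a library on FPKM, was 0.44, 0.42 and 0.41 in TGF-β+CXCL10 replicates 1 to 3, against 0.41, 0.36 and 0.37 in TGF-β replicates 1 to 3. The groups overlapped, and the means differed by 0.04 (exact two-sided permutation test, p = 0.2, where 0.1 is the smallest value that 3 against 3 libraries allow). On raw counts the difference was 0.02.

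NCOA4 (ENSG00000266412) encodes the receptor that carries ferritin to the lysosome for iron release. It had 166.8, 161.7 and 164.9 CPM in TGF-β+CXCL10 replicates 1 to 3, against 155.1, 168.4 and 167.2 CPM in TGF-β replicates 1 to 3. The TGF-β+CXCL10 libraries all lay inside the range of the TGF-β libraries. The paired log2 difference was 0.01 (SE 0.05, adjusted p = 0.938), with a sign that turned under some alternative settings.

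HMOX1 (ENSG00000100292) encodes the inducible enzyme that opens heme and releases its iron. It had 17, 23.4 and 23.2 CPM in TGF-β+CXCL10 replicates 1 to 3, against 20.6, 36.8 and 37.4 CPM in TGF-β replicates 1 to 3. The last pair of TGF-β libraries stood above all others, and TGF-β replicate 1 lay within the range of TGF-β+CXCL10. The means were 21.2 ± 3.63 CPM in TGF-β+CXCL10 and 31.6 ± 9.55 CPM in TGF-β. HMOX1 fell by 31.7% in the paired fit (log2 change -0.55, SE 0.10, adjusted p = 0.00230), with an unpaired adjusted p of 0.195. The pairs differed by -0.27, -0.65 and -0.68 (log2) in replicates 1 to 3.

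TFRC (ENSG00000072274) encodes transferrin receptor 1. It had 614.8, 623.3 and 638.8 CPM in TGF-β+CXCL10 replicates 1 to 3, against 615.2, 671.4 and 670.4 CPM in TGF-β replicates 1 to 3. TGF-β replicate 1 fell among the TGF-β+CXCL10 libraries and the other TGF-β libraries lay slightly above them. The means were 625.6 ± 12.2 CPM in TGF-β+CXCL10 and 652.3 ± 32.2 CPM in TGF-β, and the paired log2 difference was -0.06 (SE 0.04, adjusted p = 0.410).

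Set against ferritin within the same library, the transferrin receptor was relatively higher with CXCL10. The log2 ratio of TFRC to FTH1 on FPKM was -3.53, -3.75 and -3.66 in TGF-β+CXCL10 replicates 1 to 3, against -3.80, -3.97 and -3.89 in TGF-β replicates 1 to 3. The groups did not overlap, by a margin smaller than the spread inside either. The means differed by 0.24 (exact two-sided permutation test, p = 0.1, the smallest value this design allows, so that 0.05 could not be reached). This ratio does not depend on scaling between libraries, and by itself it shows unequal change, not which of the genes moved. Where FTH1 is lower, any gene that changes little has a higher ratio to it. NCOA4, IREB2 and SLC11A2 also changed little in the paired fit (log2 0.01, -0.01 and 0.02), so the shift is not particular to TFRC. The share of all genes whose ratio to FTH1 does not overlap was not counted. Taken singly in the paired edgeR fit, FTH1 was lower (log2 change -0.28, adjusted p = 0.000417). TFRC was not called (-0.06, adjusted p = 0.410), so no rise of TFRC mRNA was seen.

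**Figure D2:**
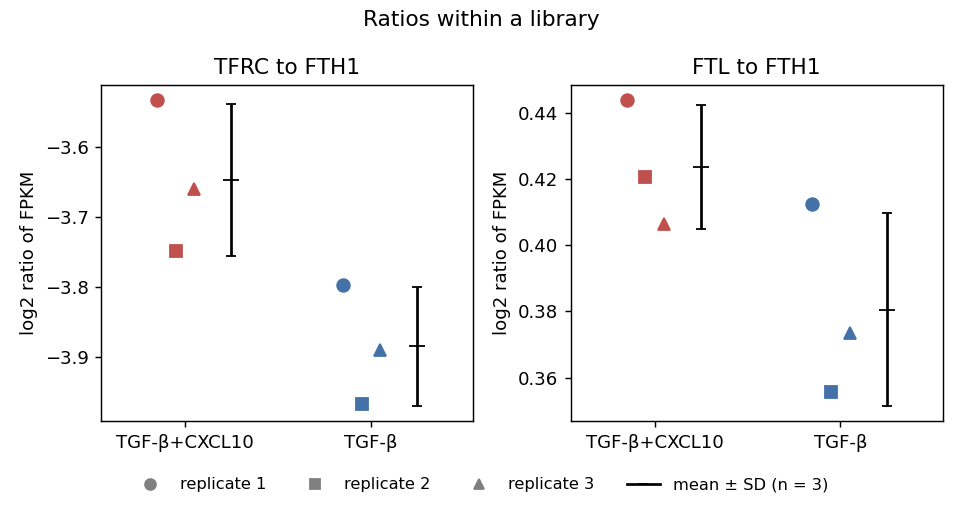
Log2 ratio of FPKM within each library for TFRC to FTH1 (left panel) and FTL to FTH1 (right panel), TGF-β+CXCL10 in red, TGF-β in blue, with mean ± SD (n = 3); the panels have different vertical scales that do not start at 0. The TFRC to FTH1 means were -3.65 in TGF-β+CXCL10 and -3.89 in TGF-β, and the FTL to FTH1 means 0.42 in TGF-β+CXCL10 and 0.38 in TGF-β.

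SLC39A14 (ENSG00000104635) encodes ZIP14, which imports iron that is not bound to transferrin, along with zinc and manganese. It had 342.3, 331.9 and 322.1 CPM in TGF-β+CXCL10 replicates 1 to 3, against 334.2, 293.4 and 297.8 CPM in TGF-β replicates 1 to 3. TGF-β replicate 1 again lay among the TGF-β+CXCL10 libraries, and the other TGF-β libraries lay below all of them. The paired log2 difference of 0.11 (SE 0.05) did not pass, with an adjusted p of 0.148. Per length it had 73.4 ± 1.27 FPKM in TGF-β+CXCL10 and 68.7 ± 2.95 FPKM in TGF-β without overlap, where 7.67% of tested genes were higher without overlap. The difference passed without both libraries of replicate 1 (log2 0.15, adjusted p = 0.00644) and, unpaired, without TGF-β replicate 1 (log2 0.17, adjusted p = 0.0490).

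SLC11A2 (ENSG00000110911) encodes DMT1, which moves ferrous iron out of the endosome. It had 34.4, 48.7 and 46.7 CPM in TGF-β+CXCL10 replicates 1 to 3, against 39.7, 44.4 and 43.0 CPM in TGF-β replicates 1 to 3. The replicate 1 libraries were the lowest of each group, and the pairs did not go one way, at -0.21, 0.13 and 0.12 (log2). The paired difference was 0.02 (SE 0.08, adjusted p = 0.918). Per length this uptake gene was far below TFRC, at 12.5 ± 2.74 FPKM in TGF-β+CXCL10 and 12.5 ± 0.41 in TGF-β, where TFRC had 123.5 ± 1.89 in TGF-β+CXCL10 and 133.4 ± 8.81 in TGF-β.

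SLC40A1 (ENSG00000138449) encodes ferroportin, the known exporter of cellular iron. It had 0 counts in the 3 TGF-β+CXCL10 libraries, against 0, 1 and 0 counts in TGF-β replicates 1 to 3, and was not tested. A count of 0 allows up to 0.207 to 0.234 CPM in the libraries at 0, for counting error only, so a difference between the groups was not detectable at this depth.

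ACO1 (ENSG00000122729) encodes iron regulatory protein 1, which is an aconitase while it holds its iron-sulfur cluster and binds RNA without it. It had 135.1, 125.4 and 129.8 CPM in TGF-β+CXCL10 replicates 1 to 3, against 126.6, 100.6 and 107.8 CPM in TGF-β replicates 1 to 3. TGF-β replicate 1 lay just above the lowest TGF-β+CXCL10 library, and the other TGF-β libraries lay below all. The means were 130.1 ± 4.86 CPM in TGF-β+CXCL10 and 111.7 ± 13.4 CPM in TGF-β. ACO1 rose by 16.9% in the paired fit (log2 change 0.22, SE 0.06, adjusted p = 0.0153), with an unpaired adjusted p of 0.210. The call was lost in paired fits by DESeq2 (adjusted p = 0.0518), by limma-trend on FPKM (0.143), and by edgeR without the libraries of replicate 2 (0.15) or 3 (0.126).

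IREB2 (ENSG00000136381) encodes iron regulatory protein 2, which is degraded when iron is plentiful. It had 70.8, 67.4 and 64.1 CPM in TGF-β+CXCL10 replicates 1 to 3, against 70.8, 64.9 and 67.7 CPM in TGF-β replicates 1 to 3. The groups covered the same range, and the paired difference was -0.01 (SE 0.06, adjusted p = 0.958), with a sign that turned under some alternative settings. Per length ACO1 was above IREB2, at 33.9 ± 1.42 and 12.4 ± 1.64 FPKM in TGF-β+CXCL10 and 29.7 ± 2.99 and 12.1 ± 1.67 in TGF-β.

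**Figure D3:**
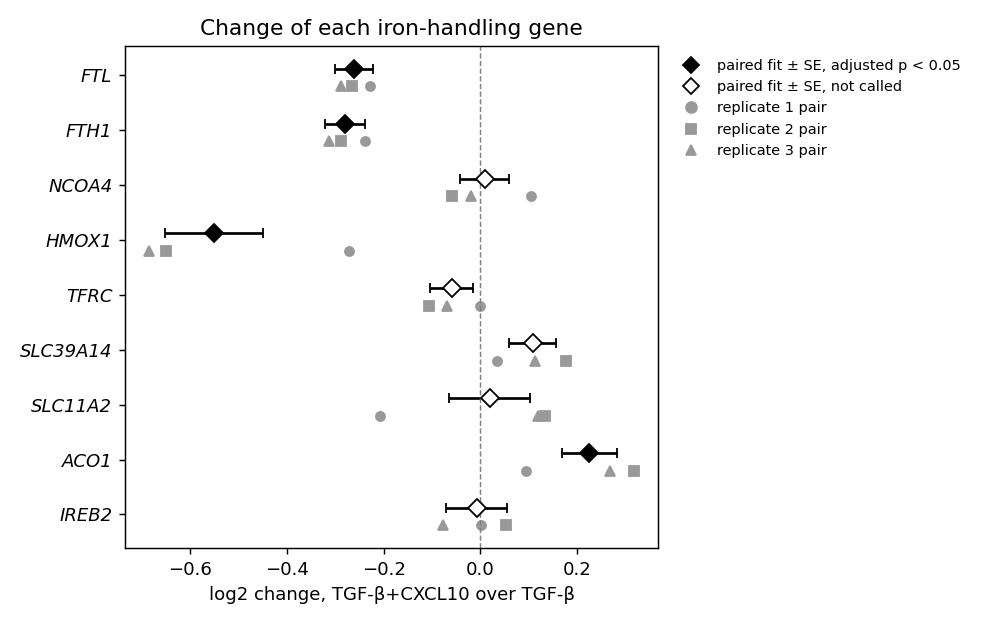
Log2 change of each tested gene, TGF-β+CXCL10 over TGF-β, from the paired fit (diamonds ± SE, filled where the adjusted p was under 0.05), and the difference of each same-numbered pair of libraries (grey). FTL, FTH1 and HMOX1 lay below 0 in all 3 pairs and ACO1 and SLC39A14 above 0 in all 3, while NCOA4, SLC11A2 and IREB2 had pairs on both sides. TFRC also lay below 0 in all 3 pairs, though at -0.001 in replicate 1.

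For the members that were called, TGF-β replicate 1 differed from the other TGF-β libraries in the direction of the change with CXCL10, and by a like or larger amount. Its log2 CPM was lower by 0.21 for FTL, 0.27 for FTH1 and 0.85 for HMOX1, and higher by 0.28 for ACO1, beside paired changes of -0.26, -0.28, -0.55 and 0.22. TGF-β+CXCL10 replicate 1 differed from its own group the same way, by -0.16, -0.20, -0.45 and 0.08. This was not particular to called members. TGF-β replicate 1 differed by -0.13 for TFRC and 0.18 for SLC39A14, beside paired changes of -0.06 and 0.11. For NCOA4, SLC11A2 and IREB2 it differed by -0.11, -0.14 and 0.10, against the sign of paired changes near 0. Over all tested genes it lay at 39.7 to 45.8 from the TGF-β+CXCL10 libraries and 48.7 and 49.5 from its own group. What sets replicate 1 apart is not given in the labels, and its part in the result was not tested. Without both libraries of replicate 1, the paired log2 changes were -0.28 for FTL, -0.30 for FTH1, -0.67 for HMOX1 and 0.29 for ACO1, and 5 of 9 members were called, with 23.6% of all genes. Without TGF-β replicate 1 alone and with no pairing, 5 of 9 members were called as well, with 19.3% of all genes. Leaving out any other single library without pairing gave 0 calls over all genes. Without the libraries of replicate 2 the paired fit called FTL, FTH1 and HMOX1, with 10.3% of all genes, and without those of replicate 3 it called FTH1 and HMOX1, with 7.48% of all genes and FTL at an adjusted p of 0.0579.

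In the authors' deposited table the log2 ratios of mean FPKM were -0.31 for FTL, -0.35 for FTH1, -0.61 for HMOX1 and 0.19 for ACO1. Their adjusted p values in the authors' deposited table were 0.0912, 0.104, 0.153 and 0.296. Of the 10 genes 0 were under 0.05, where 1.33% of the 15691 rows with a count in any library were.

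The genes whose profile over the 6 libraries was most like that of FTH1, by the root mean square difference of centred log2 CPM among 9696 genes of at least 5 CPM, were NAP1L1 (0.022), CAMKK1 (0.024) and RTN3 (0.026). FTL, a member and so not ranked, was at 0.025. For TFRC they were PXDN, SF3B1 and VPS26B, at 0.014 to 0.015. For HMOX1 they were ANKRD33B (0.047), CACNG6 (0.072) and KLF9 (0.072), farther off than the neighbours of FTH1.

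Around these members, 128 other genes of iron and heme handling and its surroundings were listed in 10 groups, of which 107 were tested. The lists were written with earlier results of these data known, so their shares of calls are descriptive. In the paired fit 9 were higher and 15 lower, and 83 were not called. Of all genes tested 17.7% were called, 9.71% higher and 8.03% lower, the shares to set beside each list below. Their median log2 change was -0.08, beside -0.01 over all genes tested and -0.01 over the 9 tested members. In the unpaired fit 0 of the 107 were called, and DESeq2 without pairing called 3 higher and 1 lower. Scaling by library totals alone with the pairing gave 8 higher and 23 lower.

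**Figure D4:**
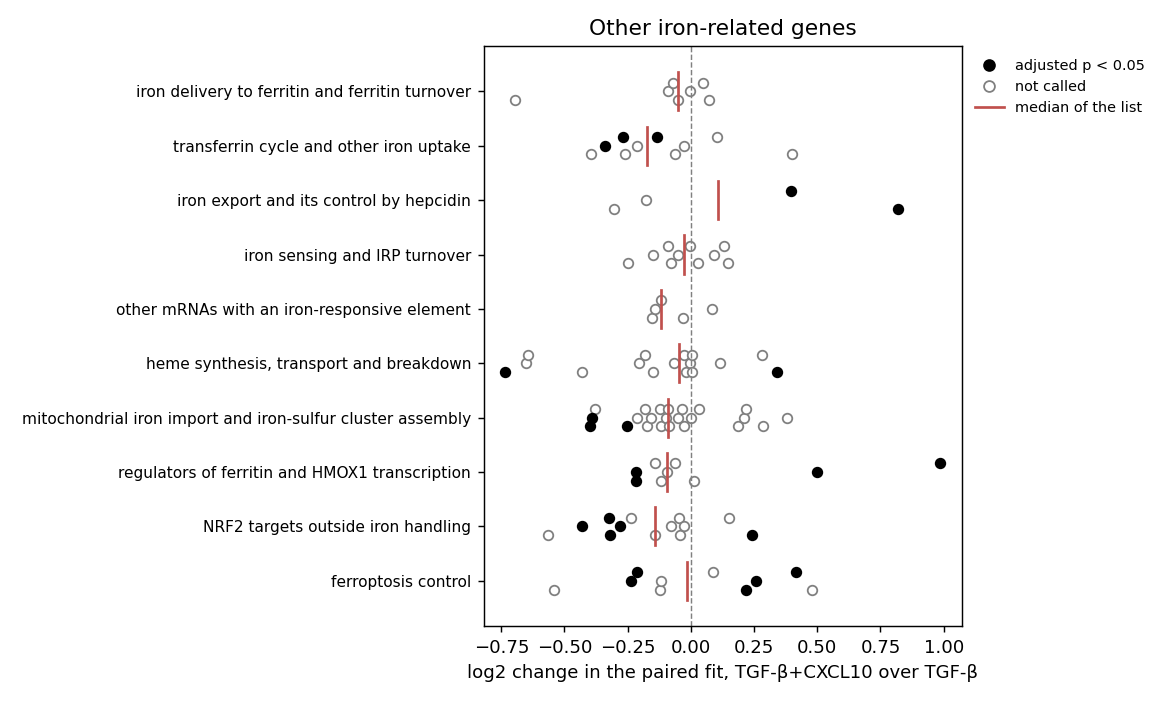
Log2 change in the paired fit, TGF-β+CXCL10 over TGF-β, of the 107 tested genes in 10 lists (rows), filled where the adjusted p was under 0.05, with the median of each list as a red line. List medians lay between -0.17 for the transferrin cycle and 0.11 for export and hepcidin control, a list in which no export gene was tested.

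The genes that load iron into ferritin or take ferritin apart gave 0 calls of 7 tested (median -0.05). The iron chaperone genes PCBP1 and PCBP2 differed by 0.07 and -0.07 (log2, adjusted p = 0.366 and 0.372), their relative PCBP3 by -0.70 (adjusted p = 0.116) and the autophagy gene ATG9A by -0.09 (adjusted p = 0.364). In the transferrin cycle and other uptake, 3 of 10 fell and 0 rose (median -0.17), where 8.03% of all genes tested were called lower. These were the membrane ferrireductase gene CYBRD1 (-0.27, SE 0.06), the endosomal ferrireductase gene STEAP3 (-0.34, SE 0.10) and LRP1 (-0.13, SE 0.04), a large endocytic receptor that takes up heme bound to hemopexin. Paired DESeq2 called CYBRD1 (adjusted p = 0.0330) but not STEAP3 (0.129) or LRP1 (0.0535). The gene of transferrin itself, TF, was low, at 2.93 ± 0.51 CPM in TGF-β+CXCL10 and 3.83 ± 0.15 CPM in TGF-β, and did not pass (adjusted p = 0.343).

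Among genes of export and of its control by hepcidin 2 of 4 tested rose and 0 fell (median 0.11), where 9.71% of all genes tested were called higher. All 4 were listed for the control by hepcidin, since the export genes CP, HEPH and HEPHL1 were too low to test. BMP6, the ligand through which iron raises hepcidin in the liver, had 60.7 ± 14.7 CPM in TGF-β+CXCL10 and 34.9 ± 13.0 CPM in TGF-β and rose by 0.82 (SE 0.09, adjusted p = 3.4e-05). FURIN, a protease that processes prohepcidin along with many other precursors, had 470.6 ± 27.2 CPM in TGF-β+CXCL10 and 360.3 ± 56.1 CPM in TGF-β and rose by 0.39 (SE 0.05). The groups did not overlap in CPM for BMP6 or FURIN, where 11.1% of tested genes were higher without overlap. HFE and NEO1 differed by -0.30 and -0.18 and did not pass (adjusted p = 0.153 and 0.690), and HAMP, which encodes hepcidin, had 0 counts, as did HJV and HEPH.

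The genes that tell iron levels to the iron regulatory proteins gave 0 calls of 10 (median -0.03), among them FBXL5, the ubiquitin ligase subunit that senses iron and removes iron regulatory protein 2, at -0.15 (adjusted p = 0.265). CIAO2A, CIAO1 and MMS19, of the machinery that hands iron-sulfur clusters to cytosolic and nuclear proteins, differed by -0.25, 0.15 and 0.09, without passing (adjusted p = 0.184, 0.187 and 0.376). Other mRNAs described as holding an iron-responsive element also gave 0 calls of 5 (median -0.12), with EPAS1, which encodes HIF-2α, at -0.12 (adjusted p = 0.0842), CDC42BPA at -0.14 (0.0781) and PFN2 at -0.15 (0.188).

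Of 16 heme genes 1 rose and 1 fell (median -0.05), where 17.7% of all genes tested were called in either direction. HMOX2, the constitutive heme oxygenase gene, had 37.2 ± 4.40 CPM in TGF-β+CXCL10 and 29.4 ± 5.28 CPM in TGF-β and rose by 0.34 (SE 0.10, adjusted p = 0.0337), where HMOX1 fell. FLVCR2, a membrane transporter gene, fell by 0.73 (log2 change, adjusted p = 0.0223) at a low level, 4.73 ± 1.47 CPM in TGF-β+CXCL10 and 7.78 ± 1.58 CPM in TGF-β. Paired DESeq2 called neither (adjusted p = 0.107 for HMOX2 and 0.0929 for FLVCR2). The heme transporter genes SLC48A1 and FLVCR1 differed by -0.64 and 0.28 and did not pass (adjusted p = 0.0827 and 0.130).

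Among 23 genes of mitochondrial iron import and iron-sulfur cluster assembly 3 fell and 0 rose (median -0.09). Over all genes tested, 17.7% were called, 8.03% of them lower and 9.71% higher as shares of all. ISCU, the scaffold on which clusters are built, had 41.0 ± 0.97 CPM in TGF-β+CXCL10 and 54.1 ± 4.43 CPM in TGF-β, and fell by 0.40 on the log2 scale (SE 0.08, adjusted p = 0.00259). Its groups did not overlap in CPM, where 11.2% of tested genes were lower without overlap. SLC25A37, which encodes the mitochondrial iron importer mitoferrin-1, had 44.7 ± 1.6 CPM in TGF-β+CXCL10 and 53.3 ± 3.34 CPM in TGF-β and fell by 0.25 (adjusted p = 0.0254). FDXR, the ferredoxin reductase gene, fell by 0.39 (adjusted p = 0.0411), and ABCB8 at -0.17 did not pass (0.0650). Paired DESeq2 called ISCU (adjusted p = 0.00788) but not SLC25A37 (0.145) or FDXR (0.209).

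The transcription factors that act on the ferritin and HMOX1 genes went both ways, with 2 higher, 2 lower and 5 not called of 9 (median -0.09). Of all genes tested 9.71% were called higher and 8.03% lower. NFE2L2, which encodes NRF2, and BACH1 were not called, at -0.14 and 0.01 (log2, adjusted p = 0.0714 and 0.929). The small MAF gene MAFG was not called either, at -0.12 (adjusted p = 0.483). MAFF and MAFK, small MAF proteins that pair with NRF2 or BACH1 on DNA, rose by 0.99 (SE 0.13) and 0.50 (SE 0.08). MAFF had 15.8 ± 5.44 CPM in TGF-β+CXCL10 and 8.01 ± 3.20 CPM in TGF-β, and MAFK 84.3 ± 6.70 CPM in TGF-β+CXCL10 and 60.2 ± 13.1 CPM in TGF-β. In CPM the groups did not overlap for either, where 11.1% of tested genes were higher without overlap. In FPKM the groups overlapped for MAFF. HIF1A and ATF4 fell by 0.22 each (adjusted p = 0.00515 and 0.00573).

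Of 13 NRF2 targets outside iron handling 1 rose and 4 fell (median -0.14), where 9.71% of all genes tested were called higher and 8.03% lower. The thioredoxin reductase gene TXNRD1 fell by 0.28, the glutathione reductase gene GSR by 0.32, the malic enzyme gene ME1 by 0.32 and AKR1C1, which was named after its value was seen, by 0.43 on the log2 scale, and the peroxiredoxin gene PRDX1 rose by 0.24. Paired DESeq2 did not call ME1 (adjusted p = 0.0535) or AKR1C1 (0.117). Ferroptosis is a form of cell death driven by iron and lipid peroxides. Of 10 genes of its control 3 rose and 2 fell (median -0.01), beside the same shares over all genes tested. GPX4, which reduces lipid peroxides, fell by 0.21 (adjusted p = 0.0110), as did CHAC1, a glutathione-degrading enzyme gene named after its value was seen, by 0.24, a call lost in paired DESeq2 (adjusted p = 0.0876). ACSL4, which loads polyunsaturated fatty acids into lipids, rose by 0.26 (adjusted p = 0.00446), the polyamine acetyltransferase gene SAT1 by 0.41 and the mitochondrial channel gene VDAC2 by 0.22. The rises and falls in these lists are calls of the paired edgeR fit, and the lowest unpaired edgeR adjusted p among them was 0.161. Unpaired DESeq2 called MAFF, FURIN, ISCU and MAFK (adjusted p = 0.0257, 0.0258, 0.0259 and 0.0284).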

How the data were processed

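Per the file headers, the authors deposited raw counts and FPKM values of each library for each gene. The same deposited table has group means of FPKM, the log2 ratio of those means, and a p-value with its adjusted form, from a test the sources used here do not name. The submitters' processing notes name GRCm38 and mm10, which the human rows contradict. The sources used here name no aligner, counting tool or use of strand.

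The deposited counts went into the quasi-likelihood test of edgeR 4.0.16 (R 4.3.3), with TMM scaling, a filterByExpr filter (count 10, total 15) and Benjamini-Hochberg adjustment over 11970 genes at 0.05. DESeq2 1.42.0 and limma 3.58.1, with log2(FPKM + 1) or log2(FPKM + 0.1), were alternatives. CPM are TMM-scaled, and log2 CPM uses a prior count of 2. The standard error is the log2 change over the root of the F statistic.

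Groups follow treatment in the labels. Nothing says that replicates were separate cultures, so p-values measure only the spread between these libraries, which may be technical. Counts of any 2 libraries of a group differed by more than sampling noise (chi-square per degree of freedom 2.79 to 18.3). The fit without a replicate block was the principal one. To see whether replicate numbers pair the libraries, each library's deviation from its group mean was correlated over genes with that of the library of the same number, giving 0.330, 0.121 and 0.163. Libraries of different numbers gave 0.0825 and 0.0803 between replicates 2 and 3, little below the 0.121, and -0.223 to -0.165 where replicate 1 was one of them. Each same-number value is over the 0.1 set as the rule for pairing, so the paired fit is given beside the unpaired. Deviations sum to 0 within a group, so this rests mainly on replicate 1, and no label states a pairing.

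Members and gene lists were chosen with earlier results of these data known. Genes named by rule are the 10 members, up to 4 per list with the lowest paired p, and the 3 nearest profiles of FTH1, TFRC and HMOX1. AKR1C1, CHAC1, NFE2L2, BACH1, MAFG, CP, HEPHL1 and the undetected HAMP, HJV and HEPH were named outside it, after their values were seen. Some genes that this rule or a marker list includes are not reported here. Ftl1 was taken for FTL through its RefSeq synonym.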

Additional observations from a re-analysis of the deposited data

How the results depend on the processing

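Without pairing, 0 genes, 0 members and 0 listed pathway genes were called by edgeR with TMM, library totals or median-ratio scaling, under either other filter on low counts, by limma-voom, or by limma-trend with either FPKM pseudocount. DESeq2 without pairing called 314 genes, 0 members and 4 pathway genes. With the replicate block, which pairs same-numbered libraries, edgeR called 2123 genes, 4 members and 24 pathway genes, DESeq2 called 1141, 3 and 15, limma-trend on log2(FPKM + 1) called 689, 3 and 11, and edgeR on library totals called 2236, 4 and 31. Leaving out 1 library without pairing gave 0 calls, except without TGF-β replicate 1, where edgeR called 2348 genes, 5 members and 29 pathway genes. With the block, edgeR called 2846 genes, 5 members and 34 pathway genes without replicate 1, 1241, 3 and 18 without replicate 2, and 904, 2 and 10 without replicate 3. FTL, FTH1, HMOX1, ACO1, TFRC and SLC39A14 kept their sign in all 21 alternatives, with log2 ranges of -0.33 to -0.21, -0.36 to -0.22, -0.81 to -0.43, 0.15 to 0.32, -0.11 to -0.03 and 0.06 to 0.17. The members near 0 changed sign, and the cause was not tested. NCOA4 was at -0.0087 on log2(FPKM + 1), paired or not, -0.0088 on log2(FPKM + 0.1), -0.0363 unpaired and -0.0346 paired on library totals, and -0.0380 paired without replicate 1. IREB2 was at 0.0278 on log2(FPKM + 1), paired or not, 0.0298 on log2(FPKM + 0.1), 0.0030 without a filter on low counts, and 0.0342 paired without replicate 3. SLC11A2 was at -0.0201 on log2(FPKM + 1), paired or not, -0.0234 on log2(FPKM + 0.1), -0.0160 unpaired and -0.0251 paired on library totals, and -0.0417 and -0.0248 paired without replicates 2 and 3. Leaving out 1 library unpaired gave -0.0274 to 0.0329 for NCOA4, -0.0431 to 0.0297 for IREB2 and -0.0645 to 0.172 for SLC11A2. The log2 ratio of TFRC to FTH1 differed by 0.18 to 0.29 without a library or a pair and that of FTL to FTH1 by 0.03 to 0.06, and as paired differences both gave an exact p of 0.25, the smallest that 3 pairs allow. At about 0.2 CPM for 3 counts, SLC40A1 could not be compared.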
